A study of Homo sapiens with 18 samples.

Results

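The interaction of ZMYND8 with 6 h of doxorubicin was measured in 8 of the 18 RNA-seq libraries of the study. It is the change after 6 h of doxorubicin in MDA-MB-231 cells that overexpress ZMYND8 minus the same change in MDA-MB-231 cells that express GFP, and it asks whether the early response to the drug differs between both lines. MDA-MB-231 is an established human line from a triple-negative breast cancer of basal type. The 4 conditions held 2 libraries each and were GFP cells without doxorubicin, GFP cells after 6 h of 0.6 µM doxorubicin, ZMYND8 cells without doxorubicin, and ZMYND8 cells after 6 h of 0.6 µM doxorubicin. Both lines carried a doxycycline-inducible lentiviral construct, and the cells of all 4 conditions, controls included, received 250 ng/mL doxycycline. The 4 libraries of these lines at 48 h of doxorubicin entered the fit to estimate the spread, and the 6 libraries of a separate transient system were not used here. One line was made for each construct, so an effect of ZMYND8 and any older difference between both lines cannot be told apart.

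ZMYND8 is a reader of histone marks. Its bromodomain, PHD finger and PWWP domain bind modified histone tails, and it works with the NuRD remodelling complex and the histone demethylase KDM5C at promoters and enhancers and at sites of DNA damage. Doxorubicin enters DNA and traps topoisomerase II on it, which breaks DNA and hinders transcription, and cells answer with checkpoint signalling within hours. A positive interaction means that a transcript fell less or rose more in ZMYND8 cells than in GFP cells after the drug, and a negative one that it rose less or fell more.

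The 8 libraries held 18300628 to 23724398 counts each, and 18801 genes passed the filter on low counts. Levels are given as CPM, the counts of a gene relative to the total of its library after scaling with TMM factors of edgeR, and every difference is on the log2 scale. The libraries of a condition are biological replicates by the study's description, and with 2 of them the p-values rest on the spread between these libraries. Of the markers of MDA-MB-231, VIM stood at 3720.0 to 4490.0 CPM, CD44 at 642 to 1340.0 CPM, AXL at 512 to 1200.0 CPM and ZEB1 at 73.2 to 115 CPM over the 8 libraries. SPARC, a matrix protein also taken beforehand as a marker of this line, differed between both lines. Which of its levels fits the label is not settled here. It stood at 161 to 182 CPM in GFP cells and at 0.315 to 1.56 CPM in ZMYND8 cells. ESR1, PGR and PTPRC, which mark luminal tumours and leukocytes, stayed under 1 CPM, CDH1 at 0.58 to 4.86 CPM, GATA3 at 9.15 to 17.2 CPM and PECAM1 at 0.986 to 5.59 CPM, whereas ERBB2 at 83.5 to 110.0 CPM and EPCAM at 10.2 to 37.4 CPM were not low. The fibroblast markers COL1A1 and PDGFRB stood at 6.46 to 15.2 CPM and 1.68 to 16.9 CPM. COL1A1, PDGFRB, PECAM1 and EPCAM were lower in every ZMYND8 library than in any GFP library and CDH1 was higher, and their part in the results was not tested.

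ZMYND8 itself was called for the interaction. The gene (ENSG00000101040.19, hg38, chr20:47209214-47356889, minus strand) stood at 209 and 208 CPM without and 93.8 and 99.4 CPM with doxorubicin in GFP cells, and at 922 and 927 CPM without and 829 and 898 CPM with doxorubicin in ZMYND8 cells. Both lines did not overlap at either time. In GFP cells the transcript fell by 1.11 on the log2 scale, and its change in ZMYND8 cells was −0.098, which did not pass the test. The interaction was 1.01 (SE 0.0652, edgeR adjusted p = 4.25e-11). Gene counts do not separate the endogenous transcript, which GFP cells show alone, from the induced one. The induced transcript adds to the counts in ZMYND8 cells, so an equal fall of the endogenous one would be a smaller log2 change there. The interaction of ZMYND8 therefore cannot tell whether the endogenous gene responded differently in both lines. The promoter of the endogenous gene (RefSeq, GRCh38.p14, chr20:47356650-47356949, minus strand) is shown here because the fall in GFP cells can only come from this copy of the gene. Capitals mark CCAAT, the box bound by NF-Y, which was searched on both strands.
ZMYND8: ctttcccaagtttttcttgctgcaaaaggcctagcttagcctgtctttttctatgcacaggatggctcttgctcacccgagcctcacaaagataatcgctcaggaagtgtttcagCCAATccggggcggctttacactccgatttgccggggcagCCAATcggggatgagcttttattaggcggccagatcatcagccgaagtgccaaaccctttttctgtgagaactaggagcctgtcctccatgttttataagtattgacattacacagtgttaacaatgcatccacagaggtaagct

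The interaction was called at 2515 genes, 13.4% of those tested, where a call is an adjusted p (Benjamini-Hochberg) no higher than 0.05 by the quasi-likelihood test of edgeR. It was higher at 1478 genes (7.86%) and lower at 1037 genes (5.52%). Genes of low level were called less often. Of the 13167 tested genes with an average log2 CPM of at least 1, 2447 were called. The shares of all genes set beside the gene lists include genes of low level, so they are low for lists of well-expressed genes. The median interaction of all genes was 0.0214 and the median size over called genes 0.375, so most called differences were small. The log2 size was at least 1 for 101 genes called higher and 93 called lower. By the criterion that the study applied to this system, an unadjusted p of at most 0.05 with a log2 size of at least 1.5, 170 genes were higher and 207 lower, 2.01% of those tested. The share of higher genes among the calls depends on the scaling. It was 58.8% with TMM factors, 50.5% with DESeq2's size factors and 32.2% with total counts alone. A total of 13 genes called higher and 14 called lower had a condition with at most 3 counts in both libraries, and their fold depends on the prior count.

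The balance of the drug response in ZMYND8 cells depends on the scaling. With TMM factors, 4163 genes (22.1%) were higher and 4851 (25.8%) lower in GFP cells, against 4102 (21.8%) higher and 3572 (19%) lower in ZMYND8 cells after 6 h. With total counts alone, 4135 were higher and 4880 lower in GFP cells, against 3003 and 4568 in ZMYND8 cells. These comparisons share no library. With TMM factors, 3022 genes were called higher and 2779 lower in both lines, which is 64.4% of the calls in GFP cells and 75.6% of those in ZMYND8 cells. The median absolute change over all genes was 0.366 in GFP cells and 0.3 in ZMYND8 cells.

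Whether the response looks smaller in ZMYND8 cells depends on the line that selects the genes. Genes called higher in GFP cells had a median change of 0.458 there and of 0.32 in ZMYND8 cells, and genes called lower in GFP cells of −0.558 and −0.333. Genes called higher in ZMYND8 cells had a median of 0.344 there and of 0.358 in GFP cells, and genes called lower in ZMYND8 cells of −0.49 and −0.515. In the latter 2 groups the change was larger in GFP cells for 49.7% and 54.6% of genes.

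Genes with a higher interaction had a median change of −0.388 in GFP cells and of 0.0191 in ZMYND8 cells. For genes with a lower interaction the medians were 0.609 and 0.18. Before the drug, the former stood lower in ZMYND8 cells than in GFP cells, with a median of −0.282, and the latter higher, with a median of 0.478. After 6 h these medians were 0.1 and 0.0269. All these values share libraries with the interaction, so they describe the called genes and are no separate evidence. All 16 ways of taking 1 library from each condition gave the same sign for 99.8% of genes called higher, 99.5% of those called lower and 38.4% of all genes tested. These combinations reuse the libraries that gave the calls, so they are no separate evidence either.

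**Figure D1:**
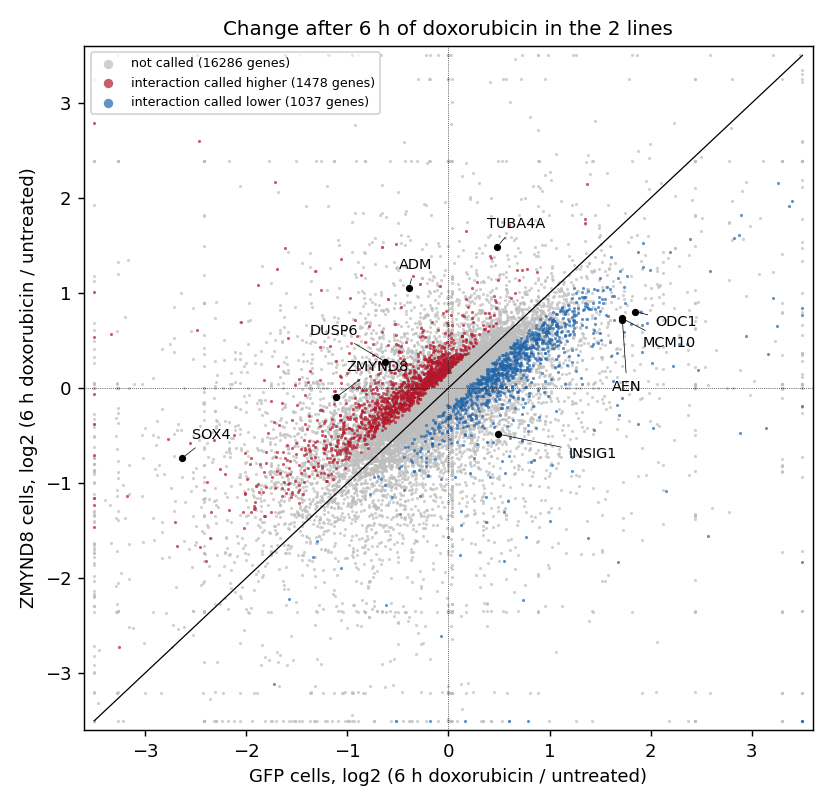
Each point is 1 of 18801 genes, placed by its log2 change after 6 h of doxorubicin in GFP cells (x axis) and in ZMYND8 cells (y axis), with red for the 1478 genes called higher and blue for the 1037 called lower for the interaction. Values beyond 3.5 are drawn at the edge, the diagonal marks equal changes, and SOX4, DUSP6 and ZMYND8 lie above it whereas ODC1, AEN, MCM10 and INSIG1 lie below it.

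In 156 genes the response was called in opposite directions. A total of 110 genes fell in GFP cells and rose in ZMYND8 cells, and 46 rose in GFP cells and fell in ZMYND8 cells. The interaction was called for all 156. It is the difference of the changes that selected these genes, so this is no separate evidence. With total counts alone the median change of all genes in ZMYND8 cells moved from −0.00989 to −0.0918, and these numbers were 58 and 90, so the balance of the directions depends on the scaling. ADM, the vasoactive peptide adrenomedullin, stood at 59.2 and 64 CPM without and 47.3 and 46.6 CPM with doxorubicin in GFP cells, and at 70.8 and 68.1 CPM without and 146 and 142 CPM with doxorubicin in ZMYND8 cells. It fell in GFP cells and rose in ZMYND8 cells, where the treated libraries lay above the other 6, and its interaction was 1.45 (SE 0.0761, edgeR adjusted p = 1.11e-12). DUSP6, the phosphatase that switches off ERK, stood at 265 and 270.2 CPM without and 173 and 174 CPM with doxorubicin in GFP cells, and at 105 and 106 CPM without and 126 and 129 CPM with doxorubicin in ZMYND8 cells. Both lines moved towards each other, with an interaction of 0.90 (SE 0.0562, edgeR adjusted p = 2.25e-11). JAG1, a Notch ligand, went from 143 and 149 to 89.4 and 91.4 CPM in GFP cells and from 159 and 152 to 168 and 177 CPM in ZMYND8 cells. The interaction of JAG1 was 0.84 (SE 0.0631, edgeR adjusted p = 6.18e-10). KRT80, an epithelial keratin, went from 216 and 216 to 197 and 190.0 CPM in GFP cells and from 67.3 and 70.2 to 108 and 115 CPM in ZMYND8 cells. Its interaction was 0.85 (SE 0.0641, edgeR adjusted p = 6.22e-10).

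In the other direction, INSIG1, which holds the sterol sensor SCAP in the endoplasmic reticulum, stood at 144 and 145 CPM without and 200.2 and 206 CPM with doxorubicin in GFP cells, and at 219 and 214 CPM without and 151 and 159.6 CPM with doxorubicin in ZMYND8 cells. The lines exchanged their order after the drug, and the interaction was −0.97 (SE 0.0577, edgeR adjusted p = 1.32e-11). HMGCS1, which makes the precursor of mevalonate, went from 78.6 and 78.2 to 134 and 131 CPM in GFP cells and from 56.3 and 59.3 to 52 and 52 CPM in ZMYND8 cells. It rose in GFP cells and fell in ZMYND8 cells, with an interaction of −0.91 (SE 0.0744, edgeR adjusted p = 2.86e-09). A total of 34 of the 156 genes belong to the gene lists described here.

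Beside ZMYND8, the smallest p-values among genes called higher, a rule set after the values were seen, belonged to SOX4, ADM, DUSP6, AREG, TRIM8, ATF4, TUBA4A, JAG1, KRT80 and TNS4. SOX4, a transcription factor of development and of epithelial plasticity, stood at 117 and 125 CPM without and 19.2 and 19.9 CPM with doxorubicin in GFP cells, and at 57.9 and 57.7 CPM without and 36.1 and 33.2 CPM with doxorubicin in ZMYND8 cells. It fell by 2.63 on the log2 scale in GFP cells and fell by 0.74 in ZMYND8 cells, and the treated ZMYND8 libraries remained above the treated GFP libraries although the untreated ones lay below. The interaction was 1.89 (SE 0.093, edgeR adjusted p = 3.94e-13). TUBA4A, an alpha-tubulin, went from 56 and 58.6 to 79.6 and 80.7 CPM in GFP cells and from 71.1 and 73 to 210.2 and 194 CPM in ZMYND8 cells. It rose in both lines and more in ZMYND8 cells, with an interaction of 1.0 (SE 0.0744, edgeR adjusted p = 5.68e-10). TRIM8, a ubiquitin ligase, went from 528 and 530.0 to 239 and 241 CPM in GFP cells and from 289 and 286 to 220.1 and 222 CPM in ZMYND8 cells, and the lines lay closer after the drug than before. Its interaction was 0.76 (SE 0.0528, edgeR adjusted p = 1.97e-10). TNS4, a tensin at integrin adhesions, went from 29.7 and 28.2 to 11 and 11.2 CPM in GFP cells and from 52.1 and 53.2 to 52.9 and 57.6 CPM in ZMYND8 cells. It fell in GFP cells, and its change in ZMYND8 cells was 0.069, which did not pass the test. The interaction was 1.45 (SE 0.114, edgeR adjusted p = 1.35e-09).

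Among genes called lower, those with the smallest p-values included INSIG1, ODC1, CDKN1A, HSPA8, MYEOV, AEN, HMGCS1, DDX21 and NOCT. ODC1, the rate-limiting enzyme of polyamine synthesis, stood at 53.7 and 50.7 CPM without and 186 and 189 CPM with doxorubicin in GFP cells, and at 162 and 161 CPM without and 286 and 279 CPM with doxorubicin in ZMYND8 cells. It rose in both lines but less in ZMYND8 cells, where it had started higher, and the interaction was −1.04 (SE 0.0637, edgeR adjusted p = 2.16e-11). DDX21, a nucleolar RNA helicase, went from 248 and 261 to 639 and 631 CPM in GFP cells and from 486 and 494 to 787 and 770.2 CPM in ZMYND8 cells. The nuclease gene AEN went from 21.6 and 22.8 to 73.4 and 73.1 CPM in GFP cells and from 99.3 and 95.3 to 158 and 162 CPM in ZMYND8 cells. Their interactions were −0.65 (SE 0.0543, edgeR adjusted p = 4.17e-09) and −1.0 (SE 0.0757, edgeR adjusted p = 6.41e-10). NOCT, an NADP(H) phosphatase with a circadian rhythm, went from 12 and 10.5 to 36.7 and 35 CPM in GFP cells and from 53.3 and 59.4 to 70.8 and 75.7 CPM in ZMYND8 cells, with an interaction of −1.29 (SE 0.109, edgeR adjusted p = 5.05e-09). MYEOV went from 113 and 116 to 219 and 214 CPM in GFP cells and from 186 and 185 to 207 and 206 CPM in ZMYND8 cells, with an interaction of −0.77 (SE 0.0577, edgeR adjusted p = 6.22e-10). In these 5 genes, as in CDKN1A and HSPA8, the untreated level was higher in ZMYND8 cells and the rise was smaller.

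**Figure D2:**
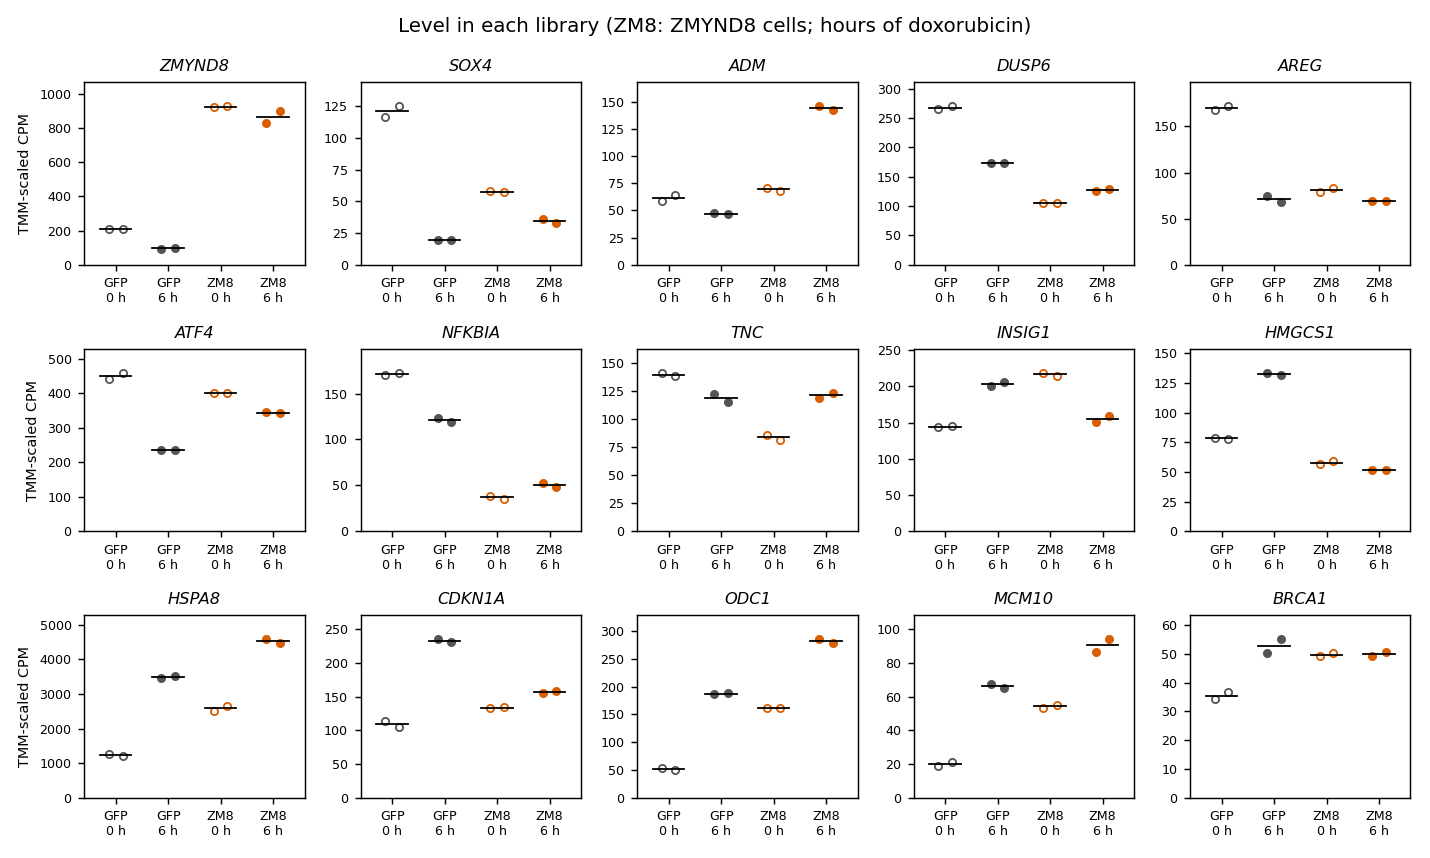
TMM-scaled CPM in each of the 8 libraries for 15 genes, with hours of doxorubicin on the x axis, grey for GFP cells, orange for ZMYND8 cells (ZM8), open circles for untreated and filled circles for treated libraries, and bars at the mean of 2. SOX4 falls to 19.2 and 19.9 CPM in GFP cells but to 36.1 and 33.2 CPM in ZMYND8 cells, and INSIG1 moves in opposite directions.

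The 12 most positive interactions, among called genes with a symbol, an average log2 CPM of at least 1 and 1 sign in all 16 combinations, included those of PARN, PRPF8, DHRS3, LMO2, MKX, ZNF467, NPM2, SOX4, IL1B, INAVA and TOGARAM2, between 1.62 and 5.21. The 12 most negative included those of LAMA1, ITPK1, U2AF1, TPM3P6, TAF15, SPARC, BTG2, KRT17, CASTOR2, PPIAP29 and NRARP, between −3.58 and −1.61. In 12 of these 24 genes the libraries of a condition differed by over 1.5 times.

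PARN, a poly(A) ribonuclease, stood at 4.71 and 6.49 CPM without and 3.2 and 2.57 CPM with doxorubicin in GFP cells, and at 0.223 and 0.131 CPM without and 2.46 and 4.36 CPM with doxorubicin in ZMYND8 cells. The untreated ZMYND8 libraries held 4 and 3 counts and the treated ones 50 and 83, a ratio of 19.7 with a 95% exact interval of 9.3 to 49.9 that covers counting error only. Its interaction was 5.21 (SE 0.887, edgeR adjusted p = 1.58e-04). PRPF8, a core protein of the spliceosome, stood at 19.1 and 19.3 CPM without and 4.3 and 4.98 CPM with doxorubicin in GFP cells, and at 4.8 and 20.9 CPM without and 25.5 and 17.8 CPM with doxorubicin in ZMYND8 cells. The interaction of PRPF8 was 2.75 (SE 0.542, edgeR adjusted p = 8.50e-04), and DESeq2's Wald test gave an adjusted p of 0.0586. The untreated ZMYND8 libraries of PRPF8 differed by over 4 times, the interaction was 2.09 without the first of them and 4.22 without the second, and the change of 0.70 in ZMYND8 cells did not pass the test. DHRS3, a retinal reductase, was even between replicates. It went from 8.72 and 9.86 to 1.26 and 1.45 CPM in GFP cells and from 2.12 and 2.14 to 1.53 and 1.42 CPM in ZMYND8 cells, which is a fall in GFP cells and a change of −0.53 in ZMYND8 cells that did not pass the test. Its interaction was 2.24 (SE 0.361, edgeR adjusted p = 8.71e-05). ZNF467, a zinc finger transcription factor, went from 11.3 and 14.7 to 1.42 and 1.45 CPM in GFP cells and from 1.51 and 2.14 to 0.739 and 0.945 CPM in ZMYND8 cells and fell in both lines. MKX, the homeobox factor of tendon, went from 2.99 and 5.06 to 2.15 and 2.25 CPM in GFP cells and from 2.23 and 1.44 to 4.29 and 3.94 CPM in ZMYND8 cells, which is a fall in GFP cells and a rise in ZMYND8 cells. IL1B, the cytokine interleukin-1 beta, went from 15.8 and 17.4 to 8.14 and 5.57 CPM in GFP cells and from 0.949 and 1.14 to 1.48 and 1.37 CPM in ZMYND8 cells, a fall in GFP cells and a change of 0.43 in ZMYND8 cells that did not pass the test.

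LAMA1, a laminin chain, held 2 and 1 counts in untreated and 30 and 34 in treated GFP cells, a ratio of 21.9 with a 95% exact interval of 7.16 to 109. In ZMYND8 cells it held 29 and 59 counts without and 78 and 65 with the drug, a ratio of 1.68 with an interval of 1.28 to 2.22. Its fitted interaction of −3.58 depends on the prior count and is no bound. KRT17, a keratin of basal epithelium, went from 1.52 and 0.844 to 5.2 and 6.42 CPM in GFP cells and from 148 and 151 to 215 and 198 CPM in ZMYND8 cells. It rose in both lines, from a level near 1 CPM in GFP cells and far higher in ZMYND8 cells, and its interaction was −1.81 (SE 0.224, edgeR adjusted p = 2.44e-06). BTG2, an antiproliferative gene, went from 2.38 and 2.58 to 8.29 and 7.49 CPM in GFP cells and from 1.79 and 1.31 to 1.28 and 1.42 CPM in ZMYND8 cells. It rose in GFP cells, and its change of −0.18 in ZMYND8 cells did not pass the test. The interaction of BTG2 was −1.85 (SE 0.32, edgeR adjusted p = 2.10e-04). SPARC went from 161 and 165 to 182 and 172 CPM in GFP cells and from 1.56 and 0.788 to 0.345 and 0.315 CPM in ZMYND8 cells, so its fall in ZMYND8 cells was measured near the floor.

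ITPK1, U2AF1 and TAF15 each had a condition whose libraries differed by over 2 times. U2AF1, a splicing factor with a near-identical gene copy whose reads cannot be told apart, stood at 5.35 and 27.7 CPM in treated GFP cells and between 2.07 and 3.36 CPM in the other 6 libraries. Without the second treated GFP library its interaction was −0.76, with an edgeR adjusted p of 0.199, and DESeq2's Wald test on all libraries gave 0.0694. ITPK1, an inositol phosphate kinase, stood at 25.4 and 6.32 CPM in treated GFP cells. Without the first of them the interactions of ITPK1 and TAF15 were −2.18 and −1.22, against −3.51 and −1.88. The pseudogenes TPM3P6 and PPIAP29 can take reads of their parent genes and are uncertain, and KRT17 and HSPA8 have pseudogenes that can share their reads. LMO2 and SPARC lost the call without the first untreated ZMYND8 library, TOGARAM2 without the first treated one, and NPM2 without each of 5 libraries in turn, with no filter and by DESeq2's Wald test.

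Genes of the integrated stress response, the programme that ATF4 drives when amino acids or protein folding fail, fell in 21 and rose in 6 of 30 members in GFP cells, and fell in 9 and rose in 13 in ZMYND8 cells. Over all genes 25.8% fell and 22.1% rose in GFP cells, and 19% and 21.8% in ZMYND8 cells. For the interaction 18 were called higher and 2, PPP1R15A and SLC7A5, lower, against 7.86% and 5.52% of all genes, and the median interaction was 0.505 against 0.0214 over all genes. The median response was −0.393 in GFP cells and 0.0235 in ZMYND8 cells. ATF4 itself went from 441 and 459.7 to 235 and 235 CPM in GFP cells and from 399 and 401 to 345 and 343 CPM in ZMYND8 cells. It fell in both lines and less in ZMYND8 cells, with an interaction of 0.72 (SE 0.0531, edgeR adjusted p = 5.13e-10). The largest called interactions were those of ADM2, a secreted peptide related to ADM, at 1.39 (SE 0.277, edgeR adjusted p = 9.04e-04), and of NUPR1, CHAC1 and CTH. NUPR1, a small stress-induced chromatin protein, went from 9.94 and 11.8 to 2.94 and 3.85 CPM in GFP cells and from 8.1 and 8.88 to 6.36 and 6.67 CPM in ZMYND8 cells. CHAC1, which degrades glutathione, went from 12.1 and 13.2 to 3.1 and 3.37 CPM in GFP cells and from 5.3 and 3.9 to 2.51 and 2.73 CPM in ZMYND8 cells. CTH, the cystathionine lyase that makes cysteine, went from 11.5 and 15.2 to 9.34 and 9.69 CPM in GFP cells and from 17.4 and 16.6 to 22.8 and 21.7 CPM in ZMYND8 cells, which is a fall in GFP cells and a rise in ZMYND8 cells. Their interactions were 1.29 (SE 0.244, edgeR adjusted p = 5.49e-04), 1.17 (SE 0.28, edgeR adjusted p = 0.00524) and 0.87 (SE 0.186, edgeR adjusted p = 0.00181).

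Enzymes that supply amino acids and charge tRNA were among the list members with opposite calls, a selection made after the values were seen. PSAT1, of serine synthesis, changed by −0.49 in GFP cells and 0.38 in ZMYND8 cells. SHMT2, the mitochondrial enzyme that splits serine, changed by −0.23 and 0.30. The tRNA synthetases GARS1 and WARS1 changed by −0.30 and −0.21 in GFP cells and by 0.21 and 0.29 in ZMYND8 cells. All 4 were called in each line and for the interaction, with edgeR adjusted p-values of 8.96e-08, 2.42e-06, 1.55e-06 and 2.52e-06. DDIT3, the factor CHOP, changed by −0.41 and 0.25, with an interaction of 0.66 (SE 0.124, edgeR adjusted p = 5.09e-04). Without 1 library, 16 to 20 members of the list were called higher.

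Cytokines and feedback inhibitors of the NF-kB pathway, in which RELA enters the nucleus once its inhibitor NFKBIA is degraded, stood lower in ZMYND8 cells before the drug, with a median of −1.18 against GFP cells. Of 29 members tested, 13 were called higher and 2 lower, against 7.86% and 5.52% of all genes, with a median interaction of 0.517. Without 1 library in turn 10 to 14 were called higher and 0 or 1 lower, and the median was 0.371 without the first untreated ZMYND8 library. The median response was −0.499 in GFP cells and −0.109 in ZMYND8 cells. NFKBIA stood at 170.4 and 173 CPM without and 124 and 119 CPM with doxorubicin in GFP cells, and at 38.3 and 35.5 CPM without and 52.6 and 48.2 CPM with doxorubicin in ZMYND8 cells. It fell in GFP cells and rose in ZMYND8 cells without the lines overlapping, with an interaction of 0.95 (SE 0.0842, edgeR adjusted p = 9.92e-09). NFKBIZ, an atypical inhibitor that also activates cytokine genes, went from 43.1 and 43.9 to 11.7 and 13 CPM in GFP cells and from 16.9 and 16.8 to 8.67 and 9.66 CPM in ZMYND8 cells and fell in both lines. CSF2, the growth factor GM-CSF, went from 16.5 and 19 to 25.7 and 21.6 CPM in GFP cells and from 1.17 and 1.97 to 4.98 and 3.47 CPM in ZMYND8 cells and rose in both. IL6, the inflammatory cytokine, fell by 0.30 in GFP cells and rose by 0.36 in ZMYND8 cells. Their interactions were 0.94 (SE 0.142, edgeR adjusted p = 3.74e-05), 0.97 (SE 0.265, edgeR adjusted p = 0.0133) and 0.65 (SE 0.088, edgeR adjusted p = 8.56e-06). Another subunit gene of the pathway, NFKB2, changed by −0.12 and 0.13, with an interaction of 0.25 (SE 0.0693, edgeR adjusted p = 0.0164). NFKB2 lost the call without each of 4 libraries in turn, with total counts and by DESeq2's Wald test. CSF2 lost it without the first untreated or the first treated ZMYND8 library, with values of 0.68 to 1.43 without 1 library in turn.

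Ligands of the EGF receptor and feedback genes of the MAPK pathway were called higher more than lower. Of 28 tested, 11 were called higher and 2 lower, beside 7.86% and 5.52% of all genes, so the lower calls were little above their share. The median interaction was 0.224, or 0.143 with total counts and with no filter. The median response was −0.543 in GFP cells and −0.247 in ZMYND8 cells. AREG, the ligand amphiregulin, stood at 168 and 172 CPM without and 75 and 68.2 CPM with doxorubicin in GFP cells, and at 79.4 and 83.1 CPM without and 69 and 69.2 CPM with doxorubicin in ZMYND8 cells. The treated libraries of both lines overlapped, AREG fell by 1.24 in GFP cells and fell by 0.23 from a lower start in ZMYND8 cells, and the interaction was 1.01 (SE 0.0704, edgeR adjusted p = 1.97e-10). EREG, the ligand epiregulin, went from 39.1 and 40.4 to 15.9 and 17.9 CPM in GFP cells and from 114 and 119.6 to 90.8 and 90.9 CPM in ZMYND8 cells. It was higher in ZMYND8 cells throughout, and its interaction was 0.87 (SE 0.0861, edgeR adjusted p = 7.92e-08). DUSP2, a nuclear phosphatase, was called lower on 0 to 16 counts a library, and no fold is given for it. It lost the call without each of 5 libraries in turn and in the fit of 8 libraries only.

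Hypoxia and glycolysis genes, the targets of HIF1A, fell in 27 of 30 members in GFP cells and in 22 in ZMYND8 cells, beside 25.8% and 19% of all genes. For the interaction 16 were called higher and 3 lower, beside 7.86% and 5.52%, with a median interaction of 0.271 and median responses of −0.584 and −0.287. Beside ADM, PFKFB4, which sets the level of a glycolytic activator, went from 88.3 and 90.4 to 17.1 and 16.9 CPM in GFP cells and from 42 and 36.6 to 12.2 and 9.98 CPM in ZMYND8 cells. INSIG2, a relative of INSIG1, went from 71.9 and 74 to 32.5 and 31.2 CPM in GFP cells and from 61.8 and 64.5 to 37.9 and 38.2 CPM in ZMYND8 cells. Both fell in both lines, with interactions of 0.57 (SE 0.127, edgeR adjusted p = 0.00254) and 0.46 (SE 0.0872, edgeR adjusted p = 5.44e-04). PFKFB4 lost the call without the first treated ZMYND8 library, with an edgeR adjusted p of 0.0588. HK2, the hexokinase that starts glycolysis, went the other way, from 115 and 111 to 152 and 142 CPM in GFP cells and from 125 and 130.1 to 112 and 115 CPM in ZMYND8 cells. It rose in GFP cells and fell in ZMYND8 cells, with an interaction of −0.54 (SE 0.0655, edgeR adjusted p = 1.93e-06). TPI1, a glycolytic isomerase, changed by −0.15 and 0.095, with an interaction of 0.25 (SE 0.0513, edgeR adjusted p = 0.00131).

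Ribosomal protein genes encode the protein part of the ribosome. For the interaction 37 of 49 members were called higher and 0 lower, beside 7.86% and 5.52% of all genes. The median interaction was 0.228, and the range was −0.223 to 0.438. In GFP cells 4 rose and 11 fell, beside 22.1% and 25.8% of all genes, so the share that fell was near that of all genes. In ZMYND8 cells 42 rose and 0 fell, beside 21.8% and 19%. The differences were small. RPS6, a protein of the small subunit that growth signals phosphorylate, went from 1027 and 1067 to 911 and 951 CPM in GFP cells and from 785 and 805 to 945 and 923 CPM in ZMYND8 cells. RPL38, of the large subunit, went from 308 and 306 to 273 and 277 CPM in GFP cells and from 237 and 275 to 324 and 298 CPM in ZMYND8 cells. RPS6 and RPL38 fell in GFP cells and rose in ZMYND8 cells, with interactions of 0.40 (SE 0.054, edgeR adjusted p = 8.20e-06) and 0.44 (SE 0.0773, edgeR adjusted p = 2.58e-04). RPL28 and RPL18, also of the large subunit, had interactions of 0.41 (SE 0.0868, edgeR adjusted p = 0.00161) and 0.40 (SE 0.0909, edgeR adjusted p = 0.0033). By DESeq2's Wald test their adjusted p-values were 0.0516 and 0.0872. The call count moved with the scaling, from 37 with TMM factors to 31 with DESeq2's size factors and 22 with total counts alone, with 0 called lower under each and a median of 0.146 with total counts. Ribosomal protein genes have many processed pseudogenes that can share their reads.

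Matrix and integrin genes rose in 3 and fell in 24 of 42 members in GFP cells, beside 22.1% and 25.8% of all genes. In ZMYND8 cells 9 rose, near the 21.8% of all genes, and 18 fell, beside 19%. For the interaction 17 were called higher, beside 7.86%, and 2 lower, near the 5.52% of all genes. The median interaction was 0.184. Without the second treated GFP library 11 were called higher, and with total counts 12 were called higher and 6 lower with a median of 0.103. TNC, the matrix protein tenascin C, stood at 141 and 138 CPM without and 122 and 115 CPM with doxorubicin in GFP cells, and at 85.8 and 81.1 CPM without and 119 and 123 CPM with doxorubicin in ZMYND8 cells. LAMB3, a chain of laminin 332, went from 303 and 314 to 289.5 and 265 CPM in GFP cells and from 409 and 435 to 583 and 601 CPM in ZMYND8 cells. TIMP1, an inhibitor of matrix proteases, changed by −0.24 and 0.15. All 3 fell in GFP cells and rose in ZMYND8 cells, with interactions of 0.77 (SE 0.0688, edgeR adjusted p = 1.23e-08), 0.64 (SE 0.0619, edgeR adjusted p = 4.71e-08) and 0.40 (SE 0.059, edgeR adjusted p = 3.22e-05). The 2 members called lower were SPARC and COL3A1, and the latter had 0 counts in both treated ZMYND8 libraries and 2 to 13 in the other 6 and lost the call without each of 5 libraries in turn.

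Targets of YAP and TGF-beta were called higher for 8 and lower for 5 of 30, beside 7.86% and 5.52% of all genes. The members named below were all called higher. The median interaction of the list, 0.0792, turned to −0.00161 with total counts alone, where 7 were called higher and 8 lower. Without the second untreated GFP, the first treated GFP or the second untreated ZMYND8 library 8 were called higher and 3 lower. PMEPA1, a feedback inhibitor of TGF-beta signalling, went from 92.4 and 95.2 to 93.5 and 93.5 CPM in GFP cells and from 99.9 and 98 to 156 and 158 CPM in ZMYND8 cells. PMEPA1 rose in ZMYND8 cells, and its change of −0.0045 in GFP cells did not pass the test. The receptor gene TGFBR2 went from 754 and 793 to 462 and 476 CPM in GFP cells and from 204 and 199.9 to 171 and 176 CPM in ZMYND8 cells and fell in both lines. The interactions of PMEPA1 and TGFBR2 were 0.67 (SE 0.0623, edgeR adjusted p = 2.61e-08) and 0.50 (SE 0.0557, edgeR adjusted p = 5.06e-07). SMAD6, an inhibitory SMAD, and ID1, an inhibitor of differentiation factors, had interactions of 1.08 (SE 0.211, edgeR adjusted p = 7.31e-04) and 0.47 (SE 0.0945, edgeR adjusted p = 0.00103).

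Interferon-stimulated genes fell in 24 of 44 members in GFP cells and in 20 in ZMYND8 cells, beside 25.8% and 19% of all genes. For the interaction 11 were called higher and 1 lower, beside 7.86% and 5.52%. The median responses were −0.219 in GFP cells and −0.13 in ZMYND8 cells. XAF1, which promotes cell death, went from 24.9 and 26.9 to 8.56 and 8.62 CPM in GFP cells and from 9.88 and 11.5 to 5.72 and 8.51 CPM in ZMYND8 cells. The antiviral GTPase gene MX1 went from 48.2 and 45.9 to 24.6 and 25.3 CPM in GFP cells and from 19.9 and 19.3 to 17.2 and 16.8 CPM in ZMYND8 cells. Both ended at more like levels in the treated libraries than in the untreated ones, with interactions of 0.99 (SE 0.185, edgeR adjusted p = 4.77e-04) and 0.71 (SE 0.0977, edgeR adjusted p = 1.04e-05). SAMD9L and SP110 had interactions of 0.58 (SE 0.0984, edgeR adjusted p = 1.76e-04) and 0.51 (SE 0.122, edgeR adjusted p = 0.00474). With total counts alone 7 members were called higher and 5 lower, and without the second untreated GFP library 7 and 0.

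Genes of DNA replication are the targets of E2F that rise at the start of S phase. They rose in 46 of 50 members in GFP cells and in 40 in ZMYND8 cells, beside 22.1% and 21.8% of all genes. For the interaction 0 were called higher, 20 lower and 30 neither, beside 7.86% higher and 5.52% lower over all genes. The median was −0.217, and 0 members were higher at an unadjusted p of at most 0.05 in edgeR or by DESeq2's Wald test. Without the second untreated GFP library 9 were called lower. MCM10, which helps load the replication polymerases, stood at 18.9 and 21.4 CPM without and 67.5 and 64.8 CPM with doxorubicin in GFP cells, and at 53.4 and 54.9 CPM without and 86.5 and 94 CPM with doxorubicin in ZMYND8 cells. CDC6, which loads the MCM helicase, went from 42.6 and 43.3 to 132 and 128 CPM in GFP cells and from 90.2 and 81.4 to 179.8 and 173 CPM in ZMYND8 cells. CDC25A, the phosphatase that activates CDK2, went from 22.8 and 22.4 to 83.7 and 87.3 CPM in GFP cells and from 34.8 and 36.8 to 83.6 and 89.8 CPM in ZMYND8 cells. All 3 rose in both lines and started higher in ZMYND8 cells, MCM10 and CDC6 by 1.43 and 0.99. Their interactions were −0.98 (SE 0.094, edgeR adjusted p = 4.41e-08), −0.55 (SE 0.0702, edgeR adjusted p = 3.70e-06) and −0.65 (SE 0.0836, edgeR adjusted p = 5.14e-06).

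The study names 5 genes of DNA damage, and all 5 were called lower for the interaction, beside 5.52% of all genes. DESeq2's Wald test called 4 of them. This list was drawn from these samples and is no independent evidence of its direction. Beside MCM10 and CDC25A they are CLSPN, which carries the signal from ATR to CHK1, BRCA1, of homologous recombination, and RFC3, a clamp loader subunit. CLSPN went from 46.5 and 40.5 to 103 and 101 CPM in GFP cells and from 70.6 and 66.1 to 95.6 and 112 CPM in ZMYND8 cells. BRCA1 stood at 34.3 and 36.6 CPM without and 50.2 and 55.1 CPM with doxorubicin in GFP cells, and at 49.1 and 50.2 CPM without and 49.1 and 50.7 CPM with doxorubicin in ZMYND8 cells. BRCA1 rose in GFP cells, and its change of 0.0065 in ZMYND8 cells did not pass the test. RFC3 went from 26.5 and 28.2 to 46.4 and 50.2 CPM in GFP cells and from 43.9 and 43.5 to 66.8 and 62.6 CPM in ZMYND8 cells. The interactions were −0.63 (SE 0.0977, edgeR adjusted p = 5.81e-05), −0.57 (SE 0.0849, edgeR adjusted p = 3.57e-05) and −0.26 (SE 0.086, edgeR adjusted p = 0.0459). RFC3 lost the call without each of 6 libraries in turn, with edgeR adjusted p-values up to 0.217, by DESeq2's Wald test, in the fit of 8 libraries only and with the replicate block. In the treated libraries the median difference between ZMYND8 and GFP cells over the 5 genes was 0.022, against 0.666 in the untreated ones.

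Of 35 genes of homologous recombination and of the checkpoints, 0 were called higher and 12 lower, beside 7.86% and 5.52% of all genes. The median interaction was −0.206. WEE1, the kinase that holds CDK1 inactive, went from 55.1 and 56.2 to 64.2 and 61.4 CPM in GFP cells and from 117 and 119.8 to 90.6 and 89.8 CPM in ZMYND8 cells. It rose in GFP cells and fell in ZMYND8 cells, with an interaction of −0.57 (SE 0.0685, edgeR adjusted p = 1.71e-06). XRCC2, of strand exchange, and FANCL, the ligase of the Fanconi pathway, had interactions of −0.52 (SE 0.15, edgeR adjusted p = 0.0196) and −0.51 (SE 0.122, edgeR adjusted p = 0.00527). XRCC2 lost the call without each of 4 libraries in turn, with edgeR adjusted p-values up to 0.074. Genes of mitosis fell in 20 of 45 members in GFP cells and in 30 in ZMYND8 cells, beside 25.8% and 19% of all genes. For the interaction 1 was called higher and 16 lower, beside 7.86% and 5.52%, and 27 were lower with total counts. ANLN, a scaffold of the cleavage furrow, went from 398 and 387 to 395 and 401 CPM in GFP cells and from 579.8 and 574 to 404 and 392 CPM in ZMYND8 cells, with an interaction of −0.55 (SE 0.0527, edgeR adjusted p = 4.01e-08). The kinesin KIF14, the spindle pole protein ASPM and the hyaluronan receptor HMMR had interactions of −0.45 (SE 0.0727, edgeR adjusted p = 8.35e-05), −0.39 (SE 0.073, edgeR adjusted p = 4.55e-04) and −0.42 (SE 0.119, edgeR adjusted p = 0.0178), and HMMR lost the call without each of 3 libraries in turn. Of the 22 replication-dependent histone genes tested in this poly(A) RNA, H2BC4 and H1-2 were called lower, a share near the 5.52% of all genes, with interactions of −1.02 (SE 0.319, edgeR adjusted p = 0.0325) and −0.43 (SE 0.127, edgeR adjusted p = 0.0236). Each lost the call without each of 4 libraries in turn, both did so without the first treated GFP library, and H2BC4 also by DESeq2's Wald test and in the fit of 8 libraries only.

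CDKN1A, the inhibitor p21 that halts the cell cycle, stood at 114 and 106 CPM without and 236 and 231 CPM with doxorubicin in GFP cells, and at 133 and 135 CPM without and 155 and 159 CPM with doxorubicin in ZMYND8 cells. It rose by 1.09 in GFP cells and by 0.23 in ZMYND8 cells, and the treated libraries of the lines did not overlap. The interaction was −0.85 (SE 0.0612, edgeR adjusted p = 3.44e-10). GADD45A, a stress sensor, went from 46.5 and 46 to 47.5 and 45.7 CPM in GFP cells and from 111 and 107 to 154 and 167 CPM in ZMYND8 cells, with a rise in ZMYND8 cells, a change of 0.0092 in GFP cells that did not pass the test and an interaction of 0.55 (SE 0.0779, edgeR adjusted p = 1.60e-05). In the BCL2 family, which sets the threshold for cell death, 2 of 15 were called higher and 2 lower, beside 7.86% and 5.52% of all genes, so the counts are little above those shares. These counts were 1 and 3 with total counts, and 1 and 1 without the first untreated or either treated GFP library. The pro-death gene BMF fell from 56.2 and 60.2 to 16.6 and 16.7 CPM in GFP cells and from 6.65 and 6.61 to 3.94 and 3.73 CPM in ZMYND8 cells, and MCL1, which guards against death, rose from 325 and 327 to 431 and 451 CPM in GFP cells and from 673 and 691 to 734 and 759 CPM in ZMYND8 cells. BMF and MCL1 had interactions of 1.02 (SE 0.165, edgeR adjusted p = 9.80e-05) and −0.31 (SE 0.0536, edgeR adjusted p = 2.46e-04). BAD, which promotes death, and BOK had interactions of 0.27 (SE 0.0798, edgeR adjusted p = 0.0221) and −0.25 (SE 0.0777, edgeR adjusted p = 0.0304). BAD and BOK each lost the call without each of 5 libraries in turn, with edgeR adjusted p-values up to 0.147 and 0.181, and BAD also with total counts and by DESeq2's Wald test.

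Cholesterol synthesis genes, which SREBF2 drives when sterols are low, were called lower more than higher for the interaction. Of 30 tested, 17 rose in GFP cells, beside 22.1% of all genes, and 7 fell, near the 25.8% of all genes. In ZMYND8 cells 10 rose and 10 fell, beside 21.8% and 19%. The interaction was called higher for 1 and lower for 11, beside 7.86% and 5.52%. Its median was −0.129, or −0.208 with total counts and −0.196 without the first treated ZMYND8 library. IDI1, an isomerase of the isoprenoid pathway, went from 111 and 103 to 218 and 228 CPM in GFP cells and from 85.9 and 87.4 to 110.1 and 105 CPM in ZMYND8 cells. SQLE, the squalene epoxidase, went from 57.2 and 56.5 to 87.3 and 89.5 CPM in GFP cells and from 21.9 and 20.6 to 20 and 19.6 CPM in ZMYND8 cells. MSMO1, a sterol demethylase, changed by 0.16 and −0.35. The interactions were −0.75 (SE 0.0657, edgeR adjusted p = 8.17e-09), −0.73 (SE 0.0931, edgeR adjusted p = 3.77e-06) and −0.51 (SE 0.0702, edgeR adjusted p = 1.02e-05), beside those of INSIG1 and HMGCS1 given before.

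Heat shock genes, the targets of HSF1, rose in 16 of 22 members in GFP cells and in 19 in ZMYND8 cells. Over all genes 22.1% and 21.8% rose. The interaction was called higher for 2, near the 7.86% of all genes, and lower for 7, beside 5.52%. HSPA8, the constitutive chaperone HSC70, stood at 1252 and 1209.5 CPM without and 3465 and 3514 CPM with doxorubicin in GFP cells, and at 2516 and 2644 CPM without and 4583 and 4474 CPM with doxorubicin in ZMYND8 cells. It rose in both lines and less in ZMYND8 cells, with an interaction of −0.69 (SE 0.0505, edgeR adjusted p = 4.53e-10). HSPH1, which exchanges the nucleotide of HSP70, went from 135 and 129 to 277 and 278 CPM in GFP cells and from 538 and 565 to 786 and 773 CPM in ZMYND8 cells, with an interaction of −0.57 (SE 0.0569, edgeR adjusted p = 8.21e-08). CHORDC1, which binds HSP90, and BAG3, which links HSP70 to autophagy, had interactions of −0.40 (SE 0.0826, edgeR adjusted p = 0.00143) and 0.39 (SE 0.0694, edgeR adjusted p = 3.08e-04). Immediate early and AP-1 genes, the first to answer growth and stress signals, were called higher for 2 and lower for 9 of 30. The shares of all genes were 7.86% and 5.52%, so the higher calls were near their share. The higher calls went to 0 with DESeq2's size factors, with total counts, by DESeq2's Wald test, with no filter, in the fit of 8 libraries only, with the replicate block and without each of 6 libraries in turn, and the lower calls ran from 6 to 13 over all settings. ZFP36, which destabilises cytokine mRNA, went from 15.4 and 17.2 to 26.9 and 21.9 CPM in GFP cells and from 43.1 and 46.7 to 32.5 and 35.9 CPM in ZMYND8 cells. It rose in GFP cells and fell in ZMYND8 cells, with an interaction of −0.98 (SE 0.129, edgeR adjusted p = 6.19e-06). FOSL1 went from 172 and 184 to 337 and 278 CPM in GFP cells and from 331 and 351 to 365 and 408 CPM in ZMYND8 cells, with an interaction of −0.61 (SE 0.087, edgeR adjusted p = 1.72e-05). FOSB rose in both lines, from 0.71 and 0.58 to 4.3 and 5.41 CPM in GFP cells and from 3.07 and 3.06 to 11 and 10.7 CPM in ZMYND8 cells, and its interaction of −1.08 (SE 0.333, edgeR adjusted p = 0.0289) lost the call without each of 4 libraries in turn and by DESeq2's Wald test. BTG2 belongs to this list as well.

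Of the 18 genes that the study names for stemness, drug resistance and epithelial-mesenchymal transition, 14 were tested, and POU5F1, NANOG, SOX2 and TWIST1 did not pass the filter. The interaction was called higher for 4 and lower for 0, beside 7.86% and 5.52% of all genes. ZEB1, the repressor of epithelial genes, went from 112 and 115 to 73.9 and 73.2 CPM in GFP cells and from 87.6 and 89.6 to 78.6 and 73.8 CPM in ZMYND8 cells and fell in both lines. VIM, the intermediate filament of mesenchymal cells, stood at 4494 and 4468 CPM without and 4038 and 3721 CPM with doxorubicin in GFP cells, and at 3829 and 4175 CPM without and 4122 and 4450.3 CPM with doxorubicin in ZMYND8 cells. CD44, a hyaluronan receptor, went from 1238 and 1252 to 1344 and 1291 CPM in GFP cells and from 642 and 679 to 842 and 829.5 CPM in ZMYND8 cells. SOX9, a factor of progenitor cells, went from 189 and 195 to 199 and 183 CPM in GFP cells and from 106 and 120.1 to 129 and 141 CPM in ZMYND8 cells. The interactions were 0.41 (SE 0.0687, edgeR adjusted p = 1.61e-04), 0.31 (SE 0.0628, edgeR adjusted p = 0.0012), 0.26 (SE 0.0548, edgeR adjusted p = 0.00179) and 0.26 (SE 0.0801, edgeR adjusted p = 0.0308). CD44 and SOX9 rose in ZMYND8 cells after the drug, their changes of 0.082 and −0.0045 in GFP cells did not pass the test, and both stood lower in all ZMYND8 libraries than in any GFP library. SOX9 ran from 0.16 to 0.36 without 1 library in turn and lost the call without each of 4 libraries, with either other scaling, by DESeq2's Wald test and in the fit of 8 libraries only. SNAI2 rose in both lines from 35.1 and 36.8 to 62 and 59.9 CPM in GFP cells and from 85.4 and 90.4 to 149 and 146 CPM in ZMYND8 cells, and its interaction of −0.021 did not pass the test. NOTCH1, BMI1, CD24, EPCAM, ABCC1, ABCC2 and CDH1 had interactions of 0.19, 0.13, −0.21, 0.079, 0.21, 0.36 and −0.47, none of which passed. NOTCH1 ran from 0.0037 to 0.35 without 1 library in turn and was called without the first treated ZMYND8 library, with an edgeR adjusted p of 0.00718. CDH1 ran from −0.79 to −0.19 and ABCC2 from 0.22 to 0.48 without 1 library in turn. ABCB1 had 0 counts in each of the 8 libraries, which allows up to 0.131 to 0.168 CPM, and ALDH1A1 had 0 to 2 counts.

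Of 39 partners of ZMYND8 and other chromatin genes tested, 7 were called higher, beside 7.86% of all genes. ZMYND8 is among the 7, and its counts include the induced copy. A further 3 were called lower, little above the 5.52% of all genes. The median of 0.0153 turned to −0.00884 with DESeq2's size factors. Without the first treated ZMYND8 library 0 were called lower, without the second untreated or the first treated GFP library 1 was, and with total counts 4 were called higher and 4 lower. KDM6B, a demethylase of lysine 27 of histone H3, went from 48.6 and 48.9 to 45.3 and 40.9 CPM in GFP cells and from 50.2 and 55 to 70.4 and 71.3 CPM in ZMYND8 cells. It fell in GFP cells and rose in ZMYND8 cells, with an interaction of 0.60 (SE 0.0831, edgeR adjusted p = 1.14e-05). ZNF532, a zinc finger protein that binds ZMYND8, and MTA3, a subunit of NuRD, had interactions of 0.53 (SE 0.119, edgeR adjusted p = 0.00308) and 0.43 (SE 0.119, edgeR adjusted p = 0.016). MTA3 lost the call without each of 3 libraries in turn, with total counts and by DESeq2's Wald test. Small nucleolar RNA host genes were called higher for 5 and lower for 4 of 22, beside 7.86% and 5.52% of all genes. Without the first untreated GFP library and by DESeq2's Wald test these counts were 3 and 1, and without the first treated GFP library 4 and 1. SNHG5 and GAS5 fell in GFP cells and rose in ZMYND8 cells, with interactions of 0.44 (SE 0.0674, edgeR adjusted p = 5.06e-05) and 0.34 (SE 0.0714, edgeR adjusted p = 0.00162). SNHG9, SNHG19, SNHG11 and SNHG12 had interactions of −2.44 (SE 0.57, edgeR adjusted p = 0.00391), 1.06 (SE 0.25, edgeR adjusted p = 0.00464), 0.69 (SE 0.217, edgeR adjusted p = 0.034) and −0.62 (SE 0.203, edgeR adjusted p = 0.041). SNHG11 lost the call without any 1 of the 8 libraries and in 4 other settings, with adjusted p-values up to 0.135 over edgeR and DESeq2, and SNHG12 without each of 5 libraries in turn and in 2 other settings.

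Of 256 ZNF genes on chromosome 19, which encode KRAB zinc finger repressors for the most part, 6 were called higher and 15 lower, beside 7.86% and 5.52% of all genes. ZNF714, ZNF296, ZNF581 and ZNF823 had interactions of −0.99 (SE 0.121, edgeR adjusted p = 2.21e-06), −0.77 (SE 0.217, edgeR adjusted p = 0.016), 0.76 (SE 0.127, edgeR adjusted p = 1.43e-04) and −0.69 (SE 0.177, edgeR adjusted p = 0.00826). With total counts 2 were called higher and 23 lower, and without 1 library in turn 2 to 5 and 9 to 13. ZNF296 lost the call without each of 4 libraries in turn and ZNF823 without each of 2. Of the 13 protein genes of the mitochondrial genome, 0 were called by edgeR or by DESeq2's Wald test, and 8 were lower at an unadjusted p of at most 0.05 in edgeR. MT-CO1, MT-CO2, MT-CO3 and MT-ND4 had interactions of −0.26, −0.32, −0.31 and −0.38. The untreated ZMYND8 libraries differed in these genes, with MT-CO1 at 2038 and 2148 CPM without and 2454 and 2440.2 CPM with doxorubicin in GFP cells, and at 3227 and 4855 CPM without and 3609 and 4272 CPM with doxorubicin in ZMYND8 cells. Without the first of them 12 of the 13 were called lower, and without the second 1 was called higher. Without the second treated ZMYND8 library 4 were called lower, and edgeR called 7 lower with total counts, 11 with no filter, 2 with the replicate block and 1 with DESeq2's size factors.

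**Figure D3:**
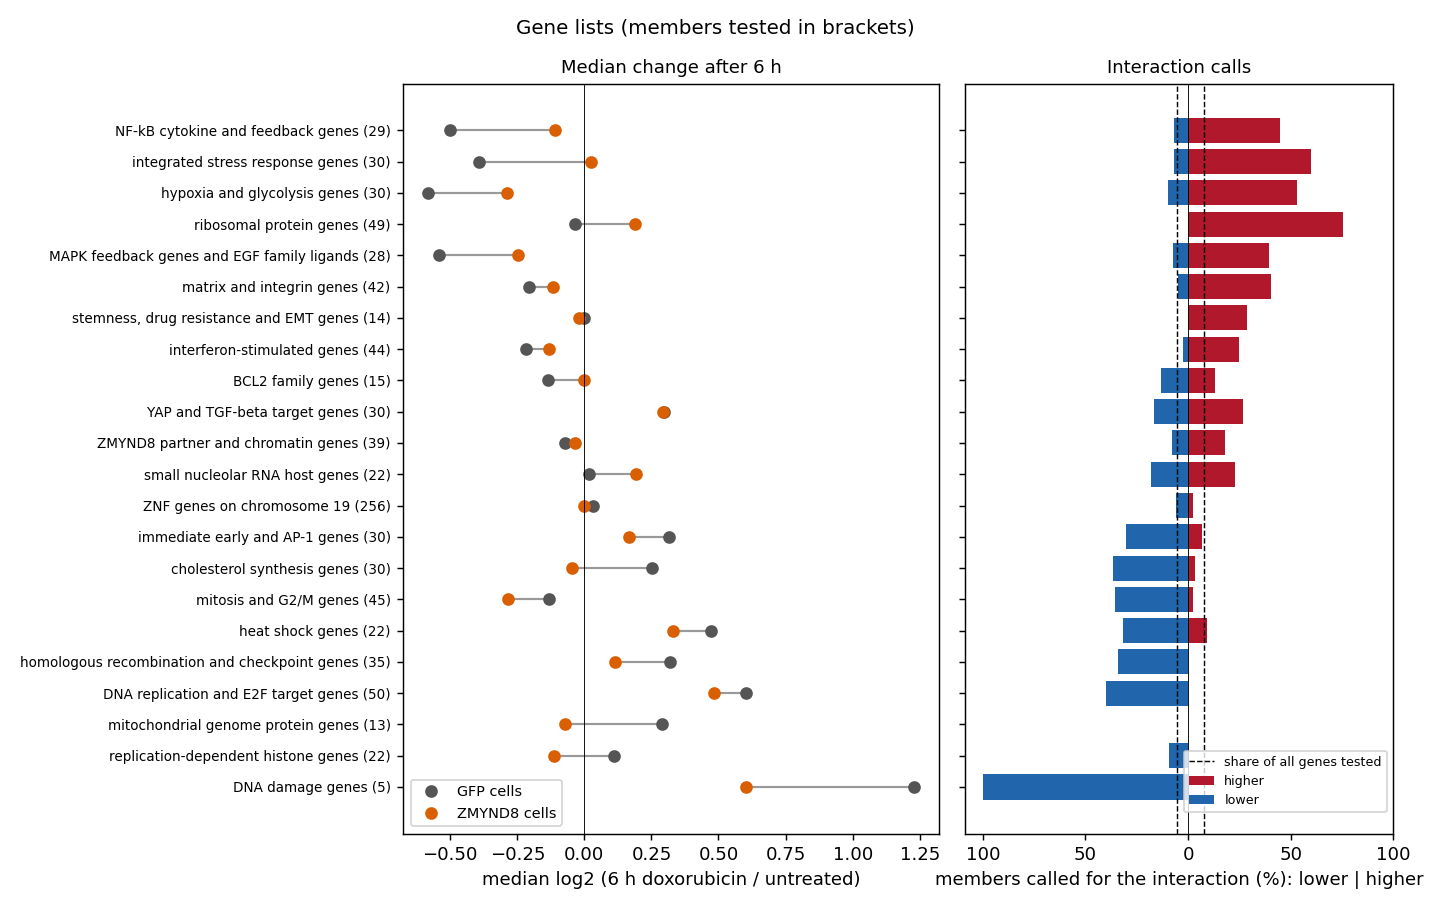
Left, median log2 change after 6 h of doxorubicin over the tested members of each gene list in GFP cells (grey) and ZMYND8 cells (orange), with the number tested in brackets. Right, percent of members called lower (blue, to the left) or higher (red, to the right) for the interaction, with dashed lines at the shares of all genes, 5.52% and 7.86%, where the integrated stress response and ribosomal protein genes reach far to the right and the genes of replication and DNA damage far to the left.

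The share of called genes differed with gene span. Called higher were 6.11% of 5401 genes that span under 10 kb, 7.32% of 7121 genes of 10 to 50 kb, 7.94% of 2885 genes of 50 to 100 kb, 12% of 2396 genes of 100 to 250 kb and 11.1% of 998 genes of 250 kb or more. The share called lower was 4.07%, 6.91%, 7%, 4.13% and 2.4% in the same order. The median interaction was 0.0187 under 10 kb and 0.114 from 250 kb, where the replicate 1 libraries alone gave 0.114 and the replicate 2 libraries 0.0851. In genes of 250 kb or more the median change was −0.343 in GFP cells and −0.267 in ZMYND8 cells. Level differs between the classes as well, with a median average log2 CPM of 1.39 under 10 kb and 2.41 from 250 kb, against 4.46 to 4.69 in the classes between, and its part was not tested.

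**Figure D4:**
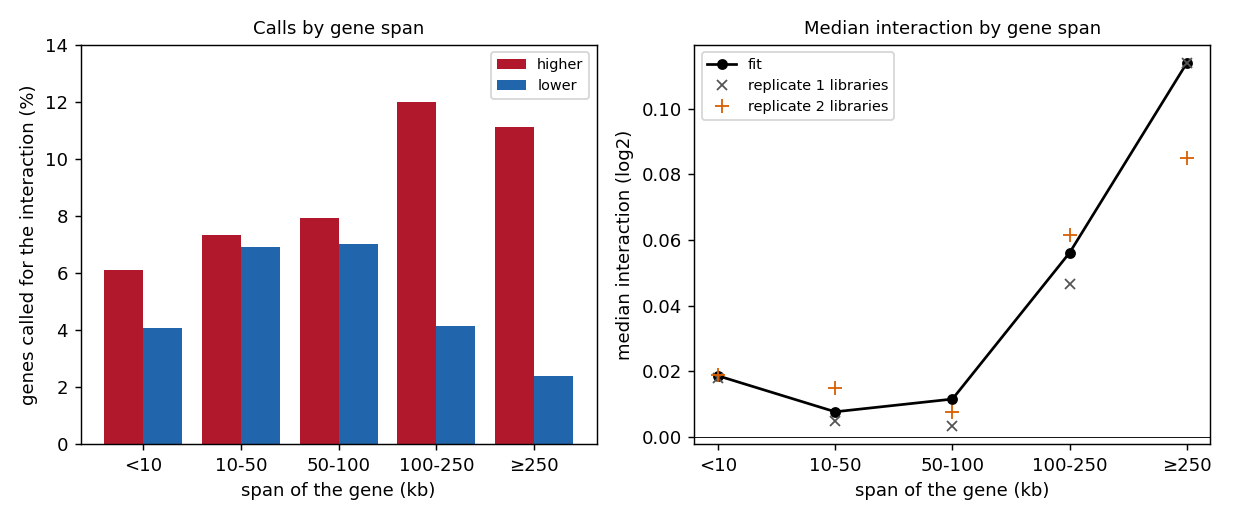
Left, percent of genes called higher (red) and lower (blue) for the interaction in 5 classes of gene span in kb. Right, median interaction on the log2 scale in each class from the fit (line) and from the replicate 1 and replicate 2 libraries alone, which rises to 0.114 in the longest genes.

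The promoters of called genes were searched for 5 sequence motifs on both strands, from 250 bases before to 50 after the start of the gene (RefSeq, GRCh38.p14). A promoter was found for 12575 of the 18801 genes, 1159 of them called higher and 818 called lower. CCAAT, the NF-Y box, stood in 32% of promoters of genes called higher, 42.3% of those called lower and 36.1% of all those tested. TTTCGCGC or TTTGGCGC, the E2F site, stood in 1.12%, 2.81% and 1.89%, TGACGTCA, the CRE, in 3.71%, 4.52% and 3.06%, TGANTCA, the AP-1 site, in 4.57%, 4.4% and 5.21%, and the NF-kB consensus in 0.777%, 0.367% and 0.541%. Among all 27305 promoters of the table the shares were 35.7%, 1.18%, 1.98%, 7.76% and 0.579% in the same order of motifs. These shares are descriptions. Within the lists, the E2F site stood in 14 of 42 promoters of DNA replication genes, and the NF-kB site in 9 of 22 promoters of the NF-kB list, whose members were chosen as targets of these factors.

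Promoters are shown for PARN, the first of the named genes after ZMYND8, for SOX4 and AREG, which are among the genes with the smallest p-values, and for NFKBIA, NFKBIZ, CDC25A and CDC6, of the NF-kB and DNA replication lists. The choice after PARN was made after the values were seen. Capitals mark any of the 5 motifs on either strand (ATTGG is CCAAT read on the other strand), which is no match in PARN, 4 CCAAT boxes in SOX4, 1 CRE in AREG, 1 NF-kB site each in NFKBIA and NFKBIZ, an E2F site with 2 CCAAT boxes in CDC25A and an E2F site with 3 CCAAT boxes in CDC6. The sequences read in the direction of the gene, from chr16:14630211-14630510 (minus strand), chr6:21593501-21593800 (plus), chr4:74444886-74445185 (plus), chr14:35404700-35404999 (minus), chr3:101827740-101828039 (plus), chr3:48188368-48188667 (minus) and chr17:40287629-40287928 (plus).
PARN: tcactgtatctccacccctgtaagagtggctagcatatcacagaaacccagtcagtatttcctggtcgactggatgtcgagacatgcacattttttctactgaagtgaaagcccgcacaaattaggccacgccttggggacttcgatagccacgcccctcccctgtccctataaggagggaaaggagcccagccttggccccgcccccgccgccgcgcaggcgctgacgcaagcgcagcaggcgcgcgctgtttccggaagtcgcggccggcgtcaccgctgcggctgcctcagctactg
SOX4: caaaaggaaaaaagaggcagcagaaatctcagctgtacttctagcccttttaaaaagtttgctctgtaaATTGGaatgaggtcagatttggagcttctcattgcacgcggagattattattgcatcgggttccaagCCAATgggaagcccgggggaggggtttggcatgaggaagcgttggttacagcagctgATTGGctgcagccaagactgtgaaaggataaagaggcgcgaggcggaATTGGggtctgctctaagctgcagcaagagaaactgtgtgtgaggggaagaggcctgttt
AREG: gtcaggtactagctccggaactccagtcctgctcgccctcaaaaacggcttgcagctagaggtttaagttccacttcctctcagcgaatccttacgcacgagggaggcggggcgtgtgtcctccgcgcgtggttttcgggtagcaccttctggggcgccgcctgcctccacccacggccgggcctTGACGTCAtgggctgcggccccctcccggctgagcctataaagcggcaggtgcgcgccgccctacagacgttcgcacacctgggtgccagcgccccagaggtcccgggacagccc
NFKBIA: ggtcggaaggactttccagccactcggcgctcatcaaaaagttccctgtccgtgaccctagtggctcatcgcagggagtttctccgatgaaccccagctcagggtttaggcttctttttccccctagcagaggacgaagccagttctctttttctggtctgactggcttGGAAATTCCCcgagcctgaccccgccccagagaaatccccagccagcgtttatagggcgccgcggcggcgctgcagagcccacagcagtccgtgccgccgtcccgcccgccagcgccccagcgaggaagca
NFKBIZ: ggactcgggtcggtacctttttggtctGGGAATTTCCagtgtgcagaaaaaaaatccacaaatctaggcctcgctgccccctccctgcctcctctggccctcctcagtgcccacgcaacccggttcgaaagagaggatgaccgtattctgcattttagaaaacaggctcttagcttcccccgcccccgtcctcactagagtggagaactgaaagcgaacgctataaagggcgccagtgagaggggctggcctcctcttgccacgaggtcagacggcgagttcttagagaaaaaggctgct
CDC25A: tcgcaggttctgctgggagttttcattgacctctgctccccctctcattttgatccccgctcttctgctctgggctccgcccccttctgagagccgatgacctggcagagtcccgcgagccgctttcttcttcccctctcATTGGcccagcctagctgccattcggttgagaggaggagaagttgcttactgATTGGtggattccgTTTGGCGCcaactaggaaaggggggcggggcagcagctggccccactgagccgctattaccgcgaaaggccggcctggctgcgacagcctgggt
CDC6: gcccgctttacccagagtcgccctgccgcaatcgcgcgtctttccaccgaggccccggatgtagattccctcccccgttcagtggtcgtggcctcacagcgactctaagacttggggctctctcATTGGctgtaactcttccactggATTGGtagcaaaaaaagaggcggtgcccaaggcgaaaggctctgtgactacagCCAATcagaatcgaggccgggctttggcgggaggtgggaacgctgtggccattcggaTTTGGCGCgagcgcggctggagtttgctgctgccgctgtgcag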

How the data were processed

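Libraries of poly(A) RNA were made from MDA-MB-231 cells with inducible GFP or ZMYND8, 12 in all, of which 8 form the interaction at 6 h. The median standard error of the interaction was 0.156. The authors deposited gene-level counts that were not normalized. The header of the table shows featureCounts 1.6.4 with the GENCODE annotation, release 31, and strand setting 2 (reverse). The study's methods name TopHat and hg38, and the submitters' processing notes name HISAT2, Trim Galore and DESeq2, so the aligner of these counts is not settled here. The study compared conditions with cuffdiff, which counts do not allow, and no such output was used. A symbol was found for 42000 of the 60603 genes listed. The counts of a transient system were not used here.

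Scaling used TMM factors, and the model was that of edgeR 4.0.16 (with limma 3.58.1, R 4.3.3), with 1 mean for each of 6 conditions and the quasi-likelihood test after its filter by expression, which left 18801 genes. The standard error is the size of the log2 value over the square root of its F value. A call is a Benjamini-Hochberg adjusted p of at most 0.05 over all genes. With 2 libraries a condition, the precision rests on the spread between them, which was 2.2 to 5.21 times the counting variance in the 4 conditions at 0 and 6 h, and intervals cover counting error only. Simulated data, in which 200 of 18458 genes had a known interaction, were used to test the fit. The 200 were drawn from genes with an average log2 CPM of at least 1. The fit recovered 81% of interactions of 2 times and 99% of those of 4 times. Of its 200 calls 20 were false, a larger share than the 0.05 set for a call. Smaller interactions, such as the median size of 0.375 over called genes, and interactions at lower levels were not simulated.

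The groups, the gene lists and the rule for named genes (ZMYND8, the 12 most positive and 12 most negative interactions among called genes with a symbol, an average log2 CPM of at least 1 and 1 sign in all 16 combinations, 2 to 4 members of each list, and the genes the study names) were chosen with earlier results of these data known. The lists of smallest p and of members with opposite calls were added after the values were seen. Some named genes and 1 list are not reported here. Lists are described by counts and medians with no test, and the shares of all genes beside them were not matched for level. Older symbols of list members were matched through RefSeq, and figures were drawn with matplotlib 3.10.9. The alternatives were other scalings, DESeq2 1.42.0, other filters, 8 libraries only, a replicate block, each library left out and other thresholds.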

Additional observations from a re-analysis of the deposited data

Results flagged for a closer look

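The response to 6 h of doxorubicin differed between GFP and ZMYND8 cells, by a test of the difference itself in edgeR, for 1478 genes with a higher and 1037 genes with a lower change in ZMYND8 cells. The direction was called opposite for 46 genes that rose in GFP cells and fell in ZMYND8 cells and for 110 that did the reverse. ZMYND8 itself differed by 1.01 on the log2 scale. Its counts in ZMYND8 cells include the induced copy, so this value cannot tell whether the endogenous gene responded differently.

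The genes that rose more or fell less in ZMYND8 cells by the largest size included PARN at 5.21, PRPF8 at 2.75, DHRS3 at 2.24, LMO2 at 2.14, MKX at 2.05, ZNF467 at 2.04, NPM2 at 2.03, SOX4 at 1.89, IL1B at 1.71, INAVA at 1.64 and TOGARAM2 at 1.62. Those that rose less or fell more included LAMA1 at −3.58, ITPK1 at −3.51, U2AF1 at −2.39, TPM3P6 at −2.25, TAF15 at −1.88, SPARC at −1.87, BTG2 at −1.85, KRT17 at −1.81, CASTOR2 at −1.78, PPIAP29 at −1.75 and NRARP at −1.61. Without 1 library in turn PRPF8 ran from 2.09 to 4.22, NPM2 from 1.23 to 2.74, ITPK1 from −4.18 to −2.18, U2AF1 from −3.13 to −0.76 and TAF15 from −2.33 to −1.22. The value of LAMA1 rests on at most 3 counts in the untreated GFP libraries.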

How the results depend on the processing

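With total counts alone 822 genes were called higher and 1730 lower for the interaction, and the median of all genes moved from 0.0214 to −0.0515. DESeq2's Wald test called 932 higher and 883 lower. An unadjusted p of at most 0.05 with a log2 size of at least 1.5 gave 377 genes, 170 higher and 207 lower, and an adjusted p of at most 0.05 with a size of at least 1 gave 194, 101 higher and 93 lower. Without 1 library in turn, 1842 to 2274 genes were called and 69% to 78.3% of the 2515 calls remained, with 0 reversed. Of the 24 genes with the largest size, 17 kept the call each time and 4 lost it under another setting, and the 20 with the smallest p (10 in each direction, ZMYND8 aside) kept it under every setting. Of the other 99 named genes called, 20 lost the call without at least 1 library and 14 under another setting. Among named genes that did not pass the test, values without 1 library in turn ran from −0.54 to 0.064 for MT-CO1, −0.74 to 0.079 for MT-ND4, −0.57 to 0.0095 for MT-CO3, −0.0079 to 0.15 for EPCAM, −0.082 to 0.52 for ABCC1 and −0.070 to 0.023 for SNAI2, and the ends of each range came from leaving out 1 of the untreated ZMYND8 libraries. SNAI2 was also above 0 without the first untreated (0.012) or treated GFP library (0.0047), and the EPCAM interaction was −0.000752 with total counts alone. The cause was not tested. Other values of named genes under the alternatives came to 1989 with the same call, 129 weaker and 11 stronger.

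Adding the replicate number to the fit as a block gave 2393 calls for the interaction, 8929 for doxorubicin in GFP cells and 7582 in ZMYND8 cells. Deviations of libraries with the same number correlated between −0.142 and 0.0505 over 15 pairs of conditions, so no shared effect of the number was seen. These correlations cannot tell whether the numbers stand for paired cultures.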
